A study of Mus musculus with 6 samples.

Results

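The genes described here run the fatty acid synthesis pathway of the mitochondrion and the attachment of lipoic acid that depends on it. They are Oxsm, Mcat, Cbr4, Hsd17b8, Mecr, Lias and Lipt1, 7 genes of 18193 that the array names by a single symbol. Every probe set annotated to exactly 1 of these symbols was taken, which gave 17 of 45037 probe sets. Hsd17b8 stands in the RefSeq gene table under its older mouse name, H2-Ke6, and was matched through the synonyms listed there. The set was selected on the measured Oxsm and Fasn signals: Oxsm read lower in the transgenic hearts while Fasn, the cytosolic synthase, read higher. Oxsm and Fasn values are therefore given as a description with no test.

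Mitochondria build fatty acids with separate enzymes that work one after the other on a small acyl carrier protein, whereas the cytosolic FASN protein joins the same activities in a single chain. A main product is octanoate, the precursor of lipoic acid. Lipoic acid is bound to subunits of pyruvate dehydrogenase, oxoglutarate dehydrogenase, the branched-chain ketoacid dehydrogenase and the glycine cleavage system. Cardiac muscle relies on these complexes to feed the citric acid cycle.

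Hearts of male C57BL/6J mice were measured on 6 arrays, with 2 arrays in each of 3 groups. The first group was a transgenic line with high cardiac FASN, the second a line with low cardiac FASN, and the third age-matched B6 controls without a described transgene. The alpha-MHC promoter, a driver of expression in heart muscle cells, controlled FASN in both lines. Each level of FASN is represented by 1 line, and its effect and other differences between the 2 lines cannot be told apart. The tissue label calls all 6 hearts transgenic, controls included, and the groups were taken from the titles. Whether the arrays of a group stand for different animals is not stated, so the p-values rest on differences among arrays that may be technical repeats. Both lines are set against the same 2 B6 arrays.

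Array signal has no physical unit, and with 2 arrays a group the precision is limited. All 8 cardiac muscle markers were bright, with summed signals between 194909 and 217563 in high-FASN hearts, 157860 and 160510 in low-FASN hearts, and 172311 and 178743 in B6 hearts. White fat markers (6 of 8 had a probe set with a single symbol) summed to between 39732 and 43241 in high-FASN hearts, 32092 and 32875 in low-FASN hearts, and 21087 and 21528 in B6 hearts. Most of that sum was Fabp4, which also marks other cells, at 24059.0 and 21527.6 in high-FASN hearts, 20193.9 and 20694.1 in low-FASN hearts, and 20117.2 and 19773.2 in B6 hearts on its brightest probe set. The fat hormone Adipoq stood at 3485.4 and 3181.1 in high-FASN hearts, 1678.0 and 1681.0 in low-FASN hearts, and 138.0 and 97.5 in B6 hearts, 28.3 and 14.3 times B6. Car3, abundant in fat, was 12.9 and 8.67 times B6 in high-FASN and low-FASN hearts on its brightest probe set. Adipoq and Car3 thus differed far more than the sum. Brown fat markers (4 of 4) summed to between 3421 and 3470 in high-FASN hearts, 1708 and 1856 in low-FASN hearts, and 1173 and 1256 in B6 hearts. Among them Ucp1, the uncoupling protein of brown fat, stood at 846.0 and 798.8 in high-FASN hearts, 185.3 and 231.5 in low-FASN hearts, and 6.23 and 10.3 in B6 hearts. The other brown fat markers differed less. In high-FASN and low-FASN hearts Cidea was 2.26 and 1.3 times B6, and Elovl3 1.04 and 0.942 times. Dio2 was 1.55 and 1.54 times B6 on its brightest probe set (limma adjusted p = 0.0872 and 0.0667). Airway markers (6 of 6) summed to between 3084 and 3277 in high-FASN hearts, 234 and 311 in low-FASN hearts, and 227 and 237 in B6 hearts. That sum hid Scgb1a1, at 1130.1 and 1164.8 in high-FASN hearts, 129.5 and 122.4 in low-FASN hearts, and 6.19 and 2.47 in B6 hearts. In low-FASN against B6 hearts, 2 of the 6 tested airway probe sets lay higher and 4 lower. No marker was listed at 0. Leptin (Lep) and Elovl3 had no probe set above the filter on dim values. In whole hearts, fewer cells of a type and less RNA per cell cannot be told apart, and the part of these cell types in the results below was not tested.

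The promoter windows of Oxsm are shown because the gene has several annotated starts, one of which lies head to head with the start of a neighbour that was also measured. Oxsm lies on chr14:16238652-16249808 (GRCm38.p6, minus strand), and the RefSeq table gives 3 windows of 300 bases for it. In the 2 printed here the capitals mark GC boxes (GGGCGG, either strand) and, in the second, also the core of the motif bound by NRF1, a regulator of mitochondrial genes (CGCATGCG, which reads the same on both strands). The first window lies at chr14:16249127-16249426 and the second at chr14:16243282-16243581, both written 5′ to 3′ on the minus strand.
Oxsm, start beside Ngly1: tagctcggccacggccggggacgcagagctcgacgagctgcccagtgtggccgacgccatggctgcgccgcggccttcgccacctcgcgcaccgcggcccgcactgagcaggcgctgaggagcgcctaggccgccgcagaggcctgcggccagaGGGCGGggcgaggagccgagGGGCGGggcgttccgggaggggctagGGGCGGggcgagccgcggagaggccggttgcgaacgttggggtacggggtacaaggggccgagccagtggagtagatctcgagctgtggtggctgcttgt
Oxsm, downstream start: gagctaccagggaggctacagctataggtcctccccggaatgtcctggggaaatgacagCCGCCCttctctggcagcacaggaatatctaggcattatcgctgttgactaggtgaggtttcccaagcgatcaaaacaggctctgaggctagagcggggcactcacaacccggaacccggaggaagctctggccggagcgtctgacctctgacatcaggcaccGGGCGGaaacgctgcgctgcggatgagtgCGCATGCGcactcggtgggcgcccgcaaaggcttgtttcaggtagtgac

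The first window shares 237 bases with the promoter window of Ngly1, which encodes an enzyme that strips sugar chains from misfolded proteins and runs the opposite way from chr14:16249314-16311926. The 2 genes overlap by 495 bases. This window has a GC content of 74.3% and 3 GC boxes, and GC boxes occur in 35.7% of all 32851 mouse promoter windows in the table. The downstream window holds the NRF1 core, which occurs in 1.87% of all windows, and 2 GC boxes. The third Oxsm window, at chr14:16249759-16250058, held no motif searched. Of the other members, Mecr and Lipt1 had GC boxes, Lipt1 also had the ETS motif CCGGAAG and the E-box CACGTG, and no other member window held the NRF1 core. These motifs occur in 8.86% and 7.15% of all windows. Windows of Lias, Cbr4 and Hsd17b8 held none of the 6 motifs searched on both strands, which also included the cAMP response element TGACGTCA (1.79%) and the ERR motif TCAAGGTCA (0.423%). In the printed windows no marked motif overlapped another. Mcat was not in the promoter table. A match describes the letters of a window and not a bound site.

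Oxsm encodes the condensing enzyme that lengthens the acyl chain by joining it to malonyl units, the step done in FASN by its ketoacyl synthase domain. Its brightest probe set (1455395_at) read 951.0 and 990.0 in high-FASN hearts, 696.5 and 769.5 in low-FASN hearts, and 1237.7 and 1322.0 in B6 hearts. Both arrays of each line lay below both B6 arrays, and low-FASN hearts lay below high-FASN hearts without overlap. The means were 970.5 ± 27.6 in high-FASN hearts, 733.0 ± 51.6 in low-FASN hearts and 1279.9 ± 59.6 in B6 hearts (SD, n = 2), so the order, from the top, was B6, high-FASN, low-FASN. The ratio to B6 hearts was 0.758 in high-FASN hearts and 0.573 in low-FASN hearts. On the scale of log2(signal + 16) used throughout, which understates the change of dim probe sets, the difference from B6 hearts was -0.39 in high-FASN hearts and -0.79 in low-FASN hearts, and the lines differed by 0.40.

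The order of the group means differed between Oxsm and Fasn, the genes on which the set was selected. On its probe set Fasn stood at 2268.3 and 2104.3 in high-FASN hearts, 461.7 and 480.6 in low-FASN hearts, and 213.3 and 187.2 in B6 hearts. The line with the highest Fasn signal thus had the middle Oxsm signal, and the line with the middle Fasn signal had the lowest Oxsm signal. The labels do not say whether the Fasn probe set reads the transgene, the mouse gene or both.

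**Figure D1:**
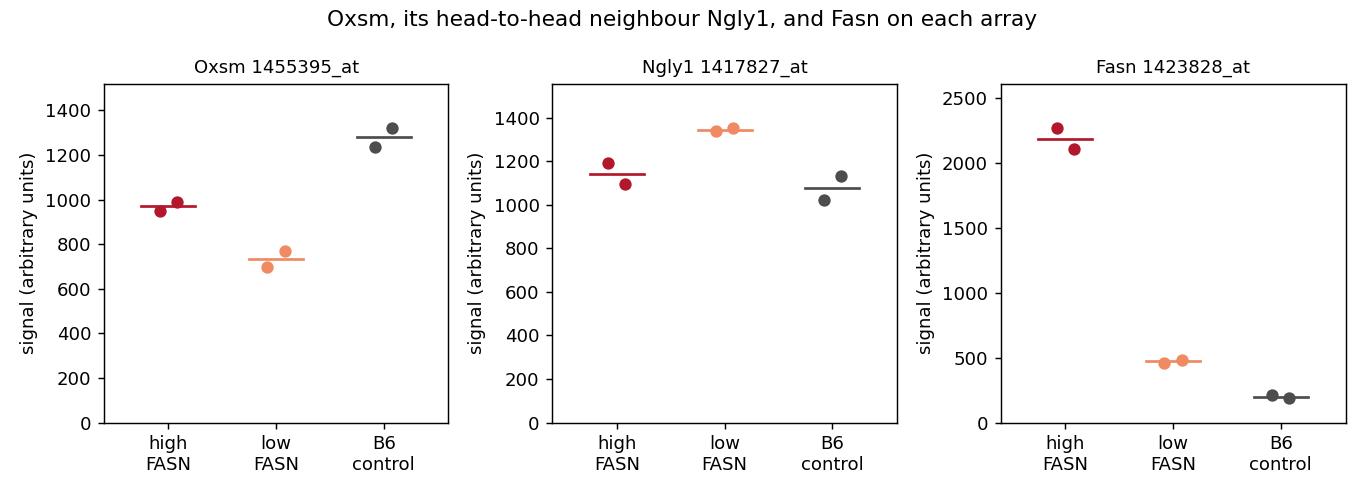
Signal in arbitrary units on each array (points) with the group mean (line) for Oxsm, its neighbour Ngly1 and Fasn in high-FASN hearts, low-FASN hearts and B6 controls. Oxsm is lowest in low-FASN hearts at 696.5 and 769.5, Ngly1 is highest there at 1337.3 and 1352.6, and Fasn is highest in high-FASN hearts at 2268.3 and 2104.3.

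A second Oxsm probe set (1429699_at) was dim, at 85.8 and 106.7 in high-FASN hearts, 32.9 and 73.0 in low-FASN hearts, and 103.0 and 111.2 in B6 hearts. Here too low-FASN hearts lay below the other groups, while high-FASN hearts overlapped the B6 hearts. Its difference of low-FASN and B6 hearts was -0.90, but -0.47 without low-FASN array 1 and -1.33 without low-FASN array 2. The remaining 3 Oxsm probe sets were under the filter. Of these, 1419973_at stood at 22.9 or less on every array and 1449685_s_at at 36.6 or less, and 1449684_at read 19.8 and 23.9 in high-FASN hearts, 8.32 and 4.47 in low-FASN hearts, and 2.52 and 4.67 in B6 hearts. The last ran against the brightest probe set, at a level where no detection call was used to tell signal from background.

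Ngly1, whose start lies head to head with one of Oxsm, read 1190.2 and 1094.2 in high-FASN hearts, 1337.3 and 1352.6 in low-FASN hearts, and 1022.5 and 1130.1 in B6 hearts. It rose in low-FASN hearts by 0.32 ± 0.0761 (log2, SE; limma adjusted p = 0.0142) and differed from B6 hearts by 0.085 in high-FASN hearts (adjusted p = 0.509). Ngly1 was thus higher in low-FASN hearts, where Oxsm read lowest. This call was lost without low-FASN array 1, without low-FASN array 2, without B6 array 1 (adjusted p up to 0.107) and with an untrended variance. On the other side of Oxsm the nearest gene with a named, tested probe set was B230110C06Rik, 786206 bases away, at 95.3 and 113.3 in high-FASN hearts, 71.6 and 66.9 in low-FASN hearts, and 61.2 and 91.6 in B6 hearts, with no called difference (adjusted p = 0.297 for high-FASN hearts and 0.80 for low-FASN against B6 hearts).

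Among 19969 named, tested probe sets, those whose profile over the 6 arrays lay closest to the brightest Oxsm probe set belonged to Spc24, Slc2a1 and Mrpl1. The measure was the root-mean-square difference of centred log2 values, which was 0.0372 for Spc24, 0.0463 for Mrpl1 and 0.0419, 0.0433 and 0.0459 for the 3 probe sets of Slc2a1. Slc2a1 encodes the glucose transporter GLUT1, Mrpl1 a protein of the mitochondrial ribosome, and Spc24 a kinetochore protein. The brightest of the Slc2a1 probe sets read 861.4 and 846.6 in high-FASN hearts, 625.6 and 650.7 in low-FASN hearts, and 1134.6 and 1180.6 in B6 hearts. Pearson's r with Oxsm lay between 0.991 and 1.0 over 6 arrays that fall into 3 groups, so these values describe a shared order of group means and carry no test.

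Of the other members, only Lias and Hsd17b8 had a called difference. Tests ran over all 22519 probe sets above the filter, with limma and Benjamini-Hochberg adjustment, and a probe set was called at an adjusted p below 0.05. Of the 12 member probe sets apart from Oxsm, 8 passed the filter. Of these, 1 was called in high-FASN against B6 hearts (higher), 2 in low-FASN against B6 hearts (both lower), and 3 between the lines (all higher in high-FASN hearts). The share called among all tested probe sets was 14.4%, 24.4% and 18.5% in the same order, so the first 2 counts stood near the background. The calls against B6 were on Lias, and those between the lines on 2 Lias probe sets and Hsd17b8. The median difference of the 8 probe sets was 0.21, -0.079 and 0.25, against 0.037, 0.019 and 0.0052 over all tested probe sets. The counts hung on single arrays. The first was 0 without B6 array 1, B6 array 2 or high-FASN array 1, and 2 without high-FASN array 2. The second was 0 without B6 array 1, B6 array 2 or low-FASN array 2, and 1 without low-FASN array 1. The last was 1 without either low-FASN array.

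**Figure D2:**
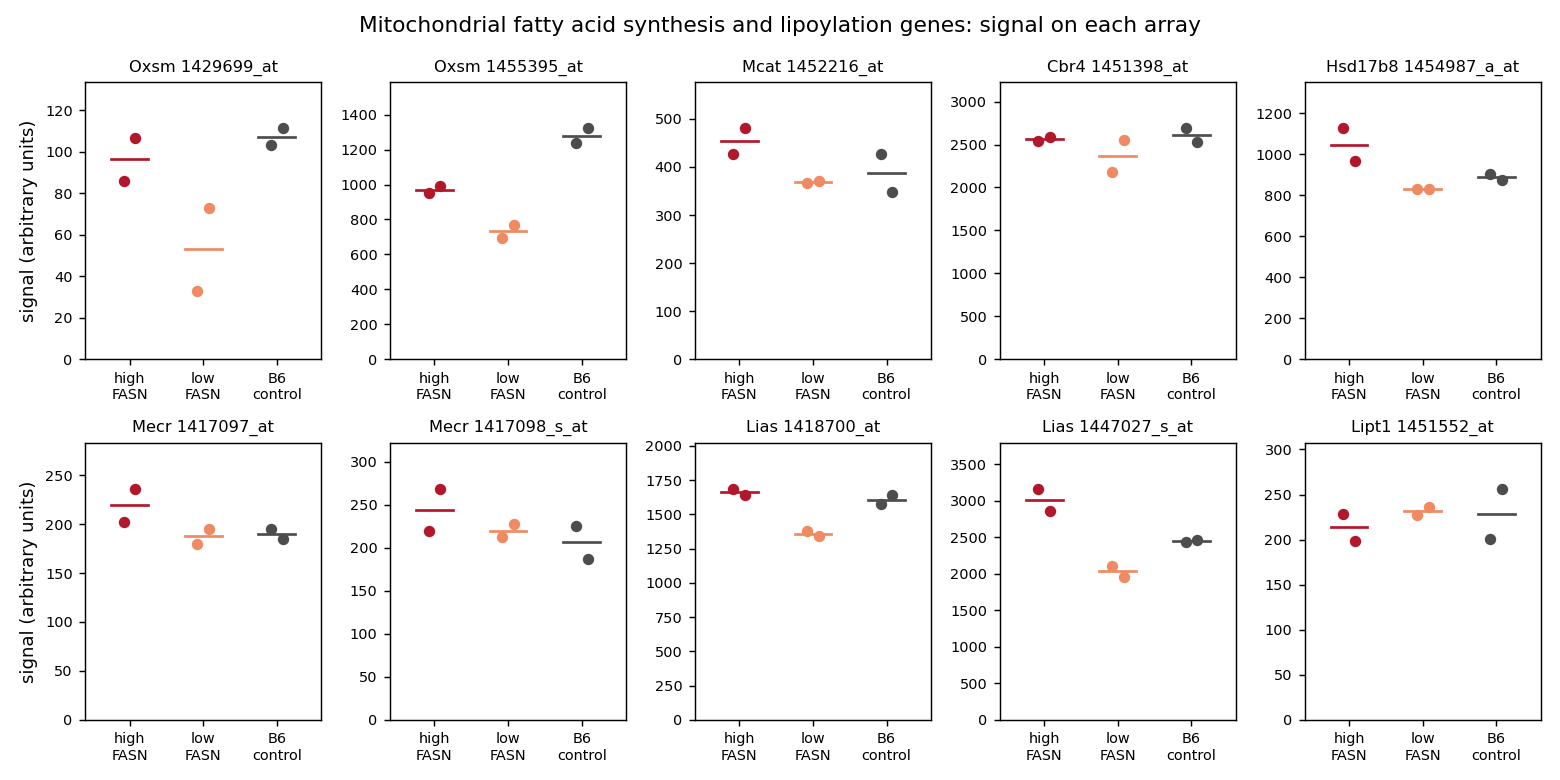
Signal in arbitrary units on each array (points) with the group mean (line) for the 10 member probe sets above the filter, in high-FASN hearts, low-FASN hearts and B6 controls, each axis starting at 0. Oxsm 1455395_at separates all 3 groups, Lias 1447027_s_at has high-FASN hearts above and low-FASN hearts below the B6 hearts, and Cbr4 and Lipt1 overlap in all groups.

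Mcat (chr15:83546797-83555759) encodes the transferase that loads malonyl units onto the acyl carrier. It read 427.1 and 480.3 in high-FASN hearts, 366.4 and 370.0 in low-FASN hearts, and 426.8 and 347.8 in B6 hearts. High-FASN hearts lay just above both B6 arrays and low-FASN arrays lay between them. The differences were 0.22 ± 0.12 for high-FASN against B6 hearts, -0.063 ± 0.12 for low-FASN against B6 hearts and 0.29 ± 0.12 between the lines, with limma adjusted p = 0.254, 0.746 and 0.13.

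Cbr4 (chr8:61487734-61503500) and Hsd17b8 (chr17:34026033-34028055) encode the partners of the ketoacyl reductase, which takes the first reduction step of each cycle. Cbr4 read 2536.0 and 2591.8 in high-FASN hearts, 2176.5 and 2552.3 in low-FASN hearts, and 2687.1 and 2530.0 in B6 hearts. All groups overlapped, and no difference was called, with values of -0.024, -0.14 and 0.12 in the 3 comparisons (limma adjusted p = 0.872, 0.213 and 0.323). Hsd17b8 read 1126.5 and 965.7 in high-FASN hearts, 833.1 and 831.7 in low-FASN hearts, and 904.6 and 874.5 in B6 hearts. The groups did not overlap, with high-FASN hearts on top and low-FASN hearts at the bottom. Hsd17b8 was higher in high-FASN than in low-FASN hearts by 0.32 ± 0.0852 (adjusted p = 0.0297), a ratio of means of 1.26. It differed from B6 hearts by 0.23 in high-FASN hearts (adjusted p = 0.115) and by -0.094 in low-FASN hearts (adjusted p = 0.467). The call between the lines was lost under 7 of 18 alternatives, among them the removal of high-FASN array 1 (0.21, adjusted p = 0.127), of low-FASN array 1 (adjusted p = 0.133), of low-FASN array 2 (adjusted p = 0.138) and of B6 array 1 (adjusted p = 0.0502).

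Mecr (chr4:131843444-131867787) encodes the enoyl reductase that closes each cycle. Its probe set 1417097_at read 202.4 and 235.7 in high-FASN hearts, 180.0 and 195.5 in low-FASN hearts, and 194.9 and 184.8 in B6 hearts, and the high-FASN arrays lay above the others. Probe set 1417098_s_at read 219.3 and 268.0 in high-FASN hearts, 212.8 and 227.1 in low-FASN hearts, and 225.2 and 187.3 in B6 hearts, with overlap in each comparison. Both leaned the same way in high-FASN hearts, by 0.19 ± 0.141 and 0.22 ± 0.15 against B6 hearts, and neither was called (limma adjusted p = 0.422 and 0.369). Against B6 hearts low-FASN hearts stood at -0.015 and 0.091 (adjusted p = 0.952 and 0.708). The remaining probe set, 1440553_at, was under the filter at 38.1 and 29.6 in high-FASN hearts, 36.7 and 25.8 in low-FASN hearts, and 22.5 and 18.6 in B6 hearts.

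Lias (chr5:65391497-65410423) encodes lipoyl synthase, an iron-sulfur enzyme that inserts sulfur atoms into the protein-bound octanoyl chain. Among the 6 members tested it was the only one with a called difference from B6 hearts. Probe set 1447027_s_at, whose suffix marks probes shared by several transcripts, read 3160.0 and 2854.6 in high-FASN hearts, 2112.7 and 1957.0 in low-FASN hearts, and 2432.0 and 2467.0 in B6 hearts. High-FASN hearts lay above and low-FASN hearts below the B6 hearts. It rose in high-FASN hearts by 0.29 ± 0.0677 (limma adjusted p = 0.0199), fell in low-FASN hearts by 0.27 (adjusted p = 0.0189), and was higher in high-FASN than in low-FASN hearts by 0.56 (adjusted p = 0.00085), a ratio of means of 1.48.

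Probe set 1418700_at of Lias read 1683.4 and 1637.8 in high-FASN hearts, 1375.5 and 1338.4 in low-FASN hearts, and 1572.6 and 1639.6 in B6 hearts. Here only low-FASN hearts stood apart, and high-FASN hearts overlapped the B6 hearts. It fell in low-FASN hearts by 0.24 (limma adjusted p = 0.0194), was higher in high-FASN than in low-FASN hearts by 0.29 ± 0.0613 (adjusted p = 0.0117), and differed from B6 hearts by 0.048 in high-FASN hearts (adjusted p = 0.657). The 2 probe sets therefore gave the same direction in low-FASN hearts and between the lines, while the rise in high-FASN hearts rested on 1 of them. That rise was lost without B6 array 1 (adjusted p = 0.108), without B6 array 2 (0.0957) and without high-FASN array 1 (0.0725). The falls in low-FASN hearts were lost without either B6 array and without low-FASN array 2 on both probe sets, and without low-FASN array 1 on 1418700_at (adjusted p = 0.0798). Between the lines 1447027_s_at was called in all 18 alternatives. The call of 1418700_at was lost without low-FASN array 1 (adjusted p = 0.0661) and without low-FASN array 2 (0.0961). The remaining probe set, 1431935_at, was under the filter, with 36.8 and 36.5 in high-FASN hearts, 3.57 and 29.0 in low-FASN hearts, and 40.7 and 23.7 in B6 hearts.

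Lipt1 (chr1:37871738-37876228) encodes the transferase that places the lipoyl group on its acceptor subunits. It read 228.4 and 198.4 in high-FASN hearts, 227.6 and 235.8 in low-FASN hearts, and 200.3 and 255.9 in B6 hearts, and the groups overlapped. The differences from B6 hearts were -0.083 ± 0.151 in high-FASN hearts and 0.03 ± 0.151 in low-FASN hearts (limma adjusted p = 0.763 and 0.91). The difference between the lines was -0.11 (adjusted p = 0.649). The other 2 Lipt1 probe sets were under the filter, at 54.7 or less on every array.

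**Figure D3:**
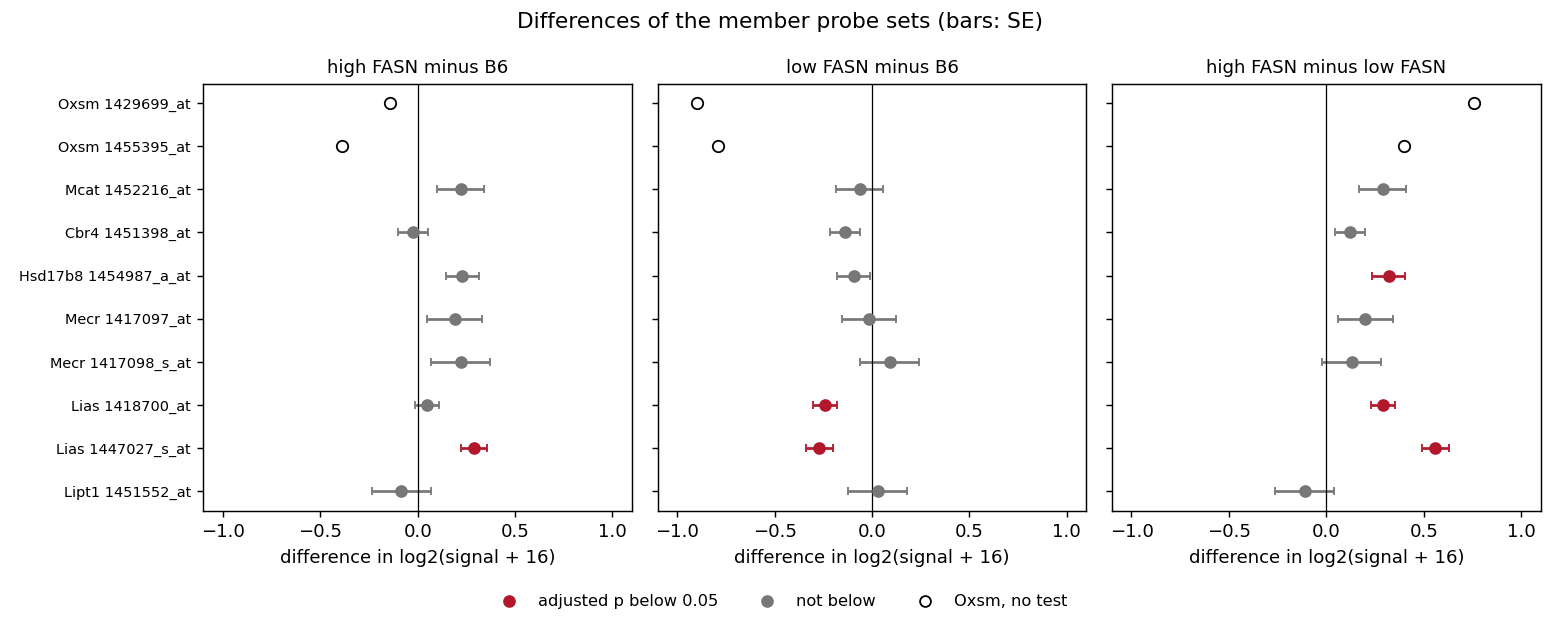
Difference in log2(signal + 16) for the 10 member probe sets above the filter (points; bars are the SE of the fit, n = 2 arrays per group) in high-FASN against B6 hearts, low-FASN against B6 hearts and high-FASN against low-FASN hearts. Called differences are red and Oxsm, drawn open, was not tested; Lias 1447027_s_at is at 0.29, -0.27 and 0.56 in the 3 panels.

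The wider pathway was described with 45 further genes in 5 roles, of which 41 had a probe set with a single symbol and 39 a tested one (67 probe sets). Gldc and Lyrm7 stayed under the filter. Against B6 hearts, 6 probe sets were higher and 6 lower in high-FASN hearts, and 3 were higher and 14 lower in low-FASN hearts. Between the lines 18 were higher and 5 lower in high-FASN hearts. The background shares were 8.22% higher and 6.2% lower for high-FASN hearts, 13.6% higher and 10.8% lower for low-FASN hearts, and 9.64% higher and 8.85% lower between the lines. The median differences were 0.0014, -0.072 and 0.096. Leaving out 1 array gave 1 to 22, 9 to 26 and 5 to 23 calls in the 3 comparisons, the lowest without B6 array 2, low-FASN array 2 and low-FASN array 1, and the highest without high-FASN array 2. Removal of any of the 6 arrays moved at least 1 of these counts by over 1.5 times. The split depended on the scaling of the arrays. With quantile normalization it was 8 higher and 7 lower, 8 higher and 14 lower, and 13 higher and 10 lower in the same comparisons. With cyclic loess it was 10 and 6, 6 and 13, and 13 and 8, and with median centring 2 and 6, 3 and 12, and 10 and 5. Cardiac muscle markers also leaned to high-FASN hearts, with 8 of 14 probe sets higher and 1 lower in high-FASN hearts (5 higher and 3 lower with quantile normalization), and their part in the counts was not tested.

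**Figure D4:**
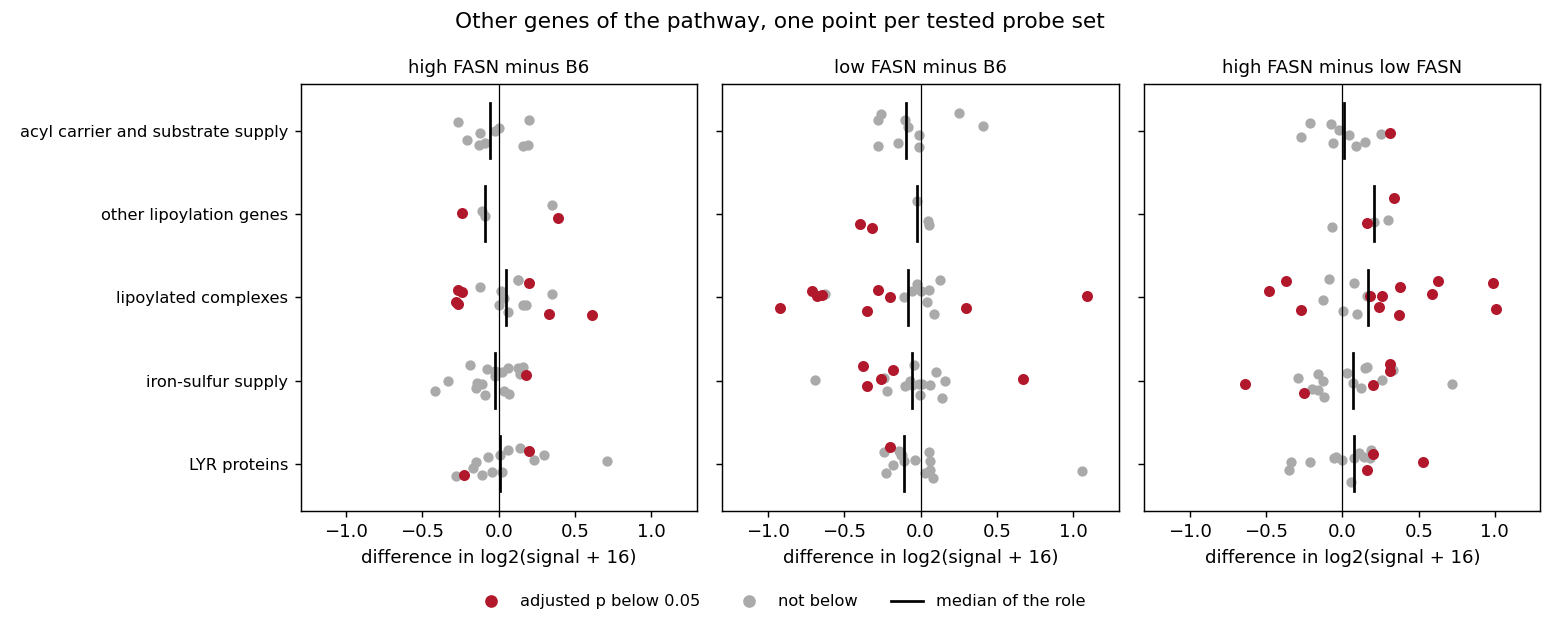
Difference in log2(signal + 16) for the 67 tested probe sets of the wider pathway (points, called ones red) by role, with the median of each role as a black line, in the 3 comparisons. In low-FASN against B6 hearts the lipoylated complexes span -0.92 (Bckdha) to 1.09 (Pdha1).

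The acyl carrier protein itself is encoded by Ndufab1, which is also a subunit of respiratory complex I. Its brightest probe set, 1428159_s_at, read 16523.9 and 15309.3 in high-FASN hearts, 12572.8 and 13025.3 in low-FASN hearts, and 14373.6 and 14036.5 in B6 hearts. It was higher in high-FASN than in low-FASN hearts by 0.31 (limma adjusted p = 0.00369) and was not called against B6 hearts (0.16, adjusted p = 0.0678, and -0.15, adjusted p = 0.0633). The difference between the lines was 0.12 with quantile normalization (adjusted p = 0.0252). Its 4 other tested probe sets showed no called difference. Nor did the 4 of Aasdhppt, which attaches the carrier's prosthetic group, or the 1 of Acsf3, which makes mitochondrial malonyl-CoA (smallest adjusted p = 0.0573). Without low-FASN array 1 the Ndufab1 call was lost (adjusted p = 0.0603).

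Among the other lipoylation genes, Lipt2, the transferase that moves octanoate from the carrier to its first acceptor, read 411.1 and 388.1 in high-FASN hearts, 318.5 and 306.4 in low-FASN hearts, and 305.5 and 295.4 in B6 hearts. It rose in high-FASN hearts by 0.39 ± 0.103 (limma adjusted p = 0.0347) and was higher there than in low-FASN hearts by 0.34 (adjusted p = 0.0497), but these calls were lost under 11 and 13 of 18 alternatives. The first call was lost without any array but high-FASN array 2 (adjusted p up to 0.153), and the second without any of the 6 (adjusted p up to 0.209). Fdx1 was lower than in B6 hearts by a log2 difference of -0.24 in high-FASN hearts (adjusted p = 0.0102) and -0.40 in low-FASN hearts (adjusted p = 0.000404). It was higher in high-FASN than in low-FASN hearts by 0.16 (adjusted p = 0.0439), a call lost with quantile normalization, median centring and cyclic loess. The Fdx1 calls were not followed one by one through the other alternatives. Of the 5 tested probe sets in this role, 1 was higher and 1 lower in high-FASN hearts and 2 were lower in low-FASN hearts. Between the lines 2 were higher and 0 lower in high-FASN hearts. That split was 0 and 0 with quantile normalization or median centring, and 1 and 0 with cyclic loess. The shares over all tested probe sets were 8.22% higher and 6.2% lower in high-FASN hearts, and 10.8% lower in low-FASN hearts. Between the lines they were 9.64% higher and 8.85% lower.

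For the proteins that carry lipoic acid, and their partner subunits, 18 probe sets from 11 genes were tested. Of these, 3 were higher and 4 lower in high-FASN hearts, and 2 were higher and 7 lower in low-FASN hearts. Between the lines 9 were higher and 3 lower in high-FASN hearts. Over all tested probe sets, 8.22% were higher and 6.2% lower in high-FASN hearts, and 13.6% higher and 10.8% lower in low-FASN hearts. Between the lines these shares were 9.64% and 8.85%. With quantile normalization the low-FASN split was 5 higher and 7 lower, and with cyclic loess 4 and 7. Between the lines it was 9 and 5 with quantile normalization, 8 and 4 with cyclic loess, and 7 and 3 with median centring.

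Ogdh encodes the first subunit of oxoglutarate dehydrogenase, a control point of the citric acid cycle. Its probe set 1451274_at read 6493.5 and 6250.4 in high-FASN hearts, 3209.0 and 3095.3 in low-FASN hearts, and 5091.4 and 5031.2 in B6 hearts. The groups were widely separated, with the lines on opposite sides of the B6 hearts, in the same order as Lias 1447027_s_at. Ogdh rose in high-FASN hearts by 0.33 (limma adjusted p = 0.00286), fell in low-FASN hearts by 0.68 (adjusted p = 3.02e-05) and was 2.02-fold higher in high-FASN than in low-FASN hearts (adjusted p = 1.23e-05). A second probe set, 1445632_at, fell in low-FASN hearts by 0.71 (adjusted p = 0.000908) and stood at -0.12 in high-FASN hearts (adjusted p = 0.451), so the rise in high-FASN hearts was seen on 1 of the 2.

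The 3 subunits listed here that belong to branched-chain ketoacid dehydrogenase alone, Bckdha, Bckdhb and Dbt, were lower in low-FASN hearts, while Dld, which it shares with other complexes, stood at 0.00017. Bckdha read 1945.3 and 2098.2 in high-FASN hearts, 1283.8 and 1307.2 in low-FASN hearts, and 2352.9 and 2576.3 in B6 hearts. It fell in low-FASN hearts by 0.92 (limma adjusted p = 3.02e-05) and in high-FASN hearts by 0.28 (adjusted p = 0.024, a call lost under 8 of 18 alternatives, B6 array 2, high-FASN array 1 and either low-FASN array left out among them, with adjusted p up to 0.174). Dbt, the lipoylated core, read 2336.1 and 1959.2 in high-FASN hearts, 1687.3 and 1594.4 in low-FASN hearts, and 2564.9 and 2584.1 in B6 hearts, and it fell in low-FASN hearts by 0.65 (adjusted p = 0.000579). The means of both had the order of Oxsm, with B6 on top, then high-FASN, then low-FASN. For Dbt the difference of high-FASN from B6 hearts was not called (-0.27, adjusted p = 0.0619). Its difference between the lines was 0.38 (adjusted p = 0.0124), a call lost without either low-FASN array. Bckdhb fell in low-FASN hearts by 0.20 (adjusted p = 0.0379), a call lost without either B6 array or either low-FASN array (adjusted p up to 0.202).

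Gcsh, the lipoylated carrier of the glycine cleavage system, read 3325.2 and 3785.5 in high-FASN hearts, 2733.5 and 2768.2 in low-FASN hearts, and 3532.3 and 3476.6 in B6 hearts. It fell in low-FASN hearts by 0.35 (limma adjusted p = 0.00499) and was higher in high-FASN than in low-FASN hearts by 0.37 (adjusted p = 0.00583, and 0.0574 without low-FASN array 1).

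Pyruvate dehydrogenase subunits gave rises and falls. Pdha1, its first subunit, read 2296.2 and 1718.2 in high-FASN hearts, 2830.8 and 2736.2 in low-FASN hearts, and 1339.2 and 1253.4 in B6 hearts on probe set 1449137_at. It rose by 0.61 in high-FASN hearts (limma adjusted p = 0.00744, and 0.0666 without B6 array 2) and by 1.09 in low-FASN hearts (adjusted p = 0.000195). On the brighter probe set 1418560_at the same differences were 0.18 (adjusted p = 0.0642) and 0.30 (adjusted p = 0.00401, and 0.0555 without low-FASN array 2), so the probe sets gave one direction and different sizes. Pdhx, the binding subunit, fell by 0.27 in high-FASN hearts (adjusted p = 0.0177) and by 0.28 in low-FASN hearts (adjusted p = 0.0105). These falls were lost without B6 array 2 (adjusted p = 0.134 and 0.089), the first also without B6 array 1 (0.0506) and the second also without low-FASN array 2 (0.0945).

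Dlat, the lipoylated core of the same complex, had probe sets that disagreed. Between the lines 1426264_at and 1426265_x_at were higher in high-FASN hearts by 0.24 and 0.18 (limma adjusted p = 0.0162 and 0.0385), whereas 1452005_at was lower there by a log2 difference of -0.37 (adjusted p = 0.00199). No direction is given for Dlat for this reason. The first 2 calls were lost without either low-FASN array, and that of 1426265_x_at also without either B6 array or high-FASN array 1 (adjusted p up to 0.20). Dld, the subunit that all of these complexes share, read 5517.3 and 5411.4 in high-FASN hearts, 6650.2 and 6548.0 in low-FASN hearts, and 6550.6 and 6646.0 in B6 hearts. It fell in high-FASN hearts by 0.27 (adjusted p = 0.00524, and 0.054 without B6 array 2) and stood at 0.00017 in low-FASN hearts (adjusted p = 0.998). Dlst, the lipoylated core of oxoglutarate dehydrogenase, rose in high-FASN hearts by 0.20 on its brightest probe set (adjusted p = 0.031), a call lost under 8 of 18 alternatives, among them the removal of either B6 array or either low-FASN array (adjusted p up to 0.213). A dim Dlst probe set, 1431011_at, was higher in high-FASN than in low-FASN hearts by 0.99 (adjusted p = 0.0325), and that call was lost under 8 of 16, among them the removal of any array but low-FASN array 2 (0.55 without low-FASN array 1).

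The genes that supply iron-sulfur clusters, on which Lias depends, and the LYR proteins that bind the acyl carrier are given by their counts. Among all tested probe sets, 8.22% were higher and 6.2% lower in high-FASN hearts, and 13.6% higher and 10.8% lower in low-FASN hearts. Between the lines 9.64% were higher and 8.85% lower in high-FASN hearts. Of 19 iron-sulfur probe sets, 1 was higher in high-FASN hearts, 1 was higher and 4 lower in low-FASN hearts, and 3 were higher and 2 lower in high-FASN against low-FASN hearts. The last split turned with the scaling, to 2 higher and 4 lower with quantile normalization or cyclic loess, and 1 and 2 with median centring. Nfs1, the cysteine desulfurase that provides the sulfur, rose in low-FASN hearts by 0.67 on its dimmer probe set 1431431_a_at (limma adjusted p = 0.00377), with 361.0 and 414.2 there against 230.0 and 243.2 in B6 hearts. Its brighter probe set, 1416373_at, stood at -0.072 (adjusted p = 0.459), so the rise was not shared. Of 15 LYR probe sets, 1 was higher and 1 lower in high-FASN hearts, 1 was lower in low-FASN hearts, and 3 were higher and 0 lower in high-FASN against low-FASN hearts. The last split was 1 and 1 with quantile normalization, and 1 and 0 with cyclic loess or median centring. Lyrm9 was higher in high-FASN than in low-FASN hearts by 0.53 on 1436548_at (adjusted p = 0.00667, and 0.0626 without low-FASN array 1), and its other 2 tested probe sets were not called (adjusted p = 0.746 and 0.557).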

How the data were processed

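Hearts of 3 groups were profiled on 6 Affymetrix expression arrays. The authors deposited a table of linear signal intensity for each probe set. GCOS, the software of the array's maker, is named in the submitters' processing notes; neither its version nor the summary algorithm and scaling target were found in the labels. Trimmed means of the deposited columns lay between 300.0021 and 300.0023, so that scaling was kept. Detection calls were not used here.

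Of 45101 probe sets, 64 controls were set aside. Among the other 45037, 34945 carried 1 gene symbol in the platform annotation, 932 several, and 9160 were not listed. Symbols were updated through Entrez identifiers and RefSeq genes of GRCm38.p6, which also gave the promoter sequences. Probe sets with a mean signal below the median of 49.01 were not tested, which left 22519. The values taken were log2(signal + 16). Group means were fitted with limma 3.58.1 under R 4.3.3 (lmFit, then eBayes with trend; residual df 3, prior df 6.3), two-sided, and p-values were adjusted by Benjamini-Hochberg over everything tested. Correlations within groups were 0.986 to 0.9899, and between groups 0.9681 to 0.9763. The fit was tested on simulated data. Figures used matplotlib 3.10.9.

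The members and lists were chosen with earlier results of these data known. Named genes are the 7 members, Fasn, the genes beside Oxsm, the 5 probe sets most like Oxsm and, from the wider pathway, Ndufab1, Dlat, Dlst, Dld, Gcsh, Lipt2 and any gene with a called log2 difference of at least 0.5 in size. Aasdhppt, Acsf3, Bckdhb, Fdx1, Pdhx and the single fat and airway markers were named after their values were seen. Alternatives covered scaling, pseudocount, filter, variance model, arrays in the fit, replicate blocking, a single probe set for every gene, and the removal of each array.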

Additional observations from a re-analysis of the deposited data

Results flagged for a closer look

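The test of high-FASN against low-FASN hearts called a difference between the 2 lines for 3 member probe sets. Against B6 hearts Hsd17b8 was called in neither line (limma adjusted p = 0.115 and 0.467). The difference was 0.32 for Hsd17b8, 0.29 for Lias 1418700_at and 0.56 for Lias 1447027_s_at, each higher in high-FASN hearts (limma adjusted p = 0.0297, 0.0117 and 0.00085). Both high-FASN arrays lay above both low-FASN arrays for each of them. Groups of 2 arrays were not examined for single outlying arrays.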

How the results depend on the processing

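Values are on the scale of log2(signal + 16), and every alternative of this section changed 1 choice. With the replicate number as a block, 1, 2 and 3 member probe sets other than Oxsm were called in high-FASN against B6, low-FASN against B6 and high-FASN against low-FASN hearts, the same as without it, and the wider pathway had 14, 18 and 21 calls. Same-numbered arrays deviated together by r of 0.0363, 0.0236 and 0.0015 between groups, so the numbers were not taken to pair arrays. The block ended the Lipt2 call between the lines. Without the intensity trend in the variance, the member calls were 0, 0 and 1, the wider pathway calls 0, 8 and 5, and the calls over all probe sets 1228, 3595 and 1444. Median centring left 0 member calls in high-FASN against B6 hearts and 15 wider calls between the lines. With one probe set per gene there was 1 member call in low-FASN against B6 hearts, 14 wider calls between the lines, and 3454 and 2621 calls over all in the last 2 comparisons, from fewer probe sets tested. Without the filter the wider calls were 6 in high-FASN against B6 hearts and 13 between the lines, and with the 4 arrays of a comparison alone they were 6, 26 and 15. Leaving out 1 array gave 0 to 2, 0 to 2 and 1 to 3 member calls, 1 to 22, 9 to 26 and 5 to 23 wider calls, and 1370 to 3505, 2925 to 6492 and 1556 to 4154 calls over all. Where an arm kept 1 array, it was assumed to vary like the other groups. The cause of these shifts was not tested.

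Direction turned for 7 uncalled differences near 0. Cbr4 in high-FASN against B6 hearts was 0.016 with quantile normalization and ran from -0.067 to 0.019 with 1 array left out. Lipt1 in low-FASN against B6 hearts was -0.038 with cyclic loess and -0.051 with quantile normalization, and ran from -0.13 to 0.20 with 1 array left out. In high-FASN against B6 hearts Lipt1 ran from -0.25 to 0.082. In low-FASN against B6 hearts Mcat ran from -0.20 to 0.079, Mecr 1417097_at from -0.07 to 0.04 and Mecr 1417098_s_at from -0.033 to 0.21, and the last ran from -0.0035 to 0.27 between the lines. Oxsm on its brightest probe set kept its direction under all alternatives run, between -0.44 and -0.35 in high-FASN hearts and between -0.86 and -0.72 in low-FASN hearts against B6, and between 0.33 and 0.47 between the lines. The set was selected on Oxsm, so these ranges are a description only. Among single values, 533 of the alternatives planned gave no change, 24 lost a call, 1 gained one and 3, all for Fasn, shifted by more than the replicate spread. No change meant the same direction and side of the threshold. For Oxsm and Fasn, which had no test, it meant the same direction and a shift below the replicate spread. Among alternatives added later for the wider pathway and Ngly1, 509 kept direction and side of the threshold and 108 lost a call. No detection calls were used here, so dim probe sets have no stated floor.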
